A study of Mus musculus with 16 samples.

Results

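The fast fibre genes are 10 genes whose products build or run the contractile machinery of fast-twitch skeletal muscle: Myh1, Myh2, Myh4, Mylpf, Tnni2, Tnnt3, Tnnc2, Actn3, Atp2a1 and Pvalb. They were chosen by name, and every probe set annotated to 1 of these symbols and to no other gene was taken, which gave 15 probe sets among the 34958 probe sets with a single symbol, or 10 of 18194 genes. Each gene is described by its brightest probe set over the muscle arrays, and the dimmer probe sets of Myh4, Myh1 and Tnni2 are set beside it.

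The study asked what overexpression of Galgt2 (the mouse gene B4galnt2, a glycosyltransferase) does to gene expression in muscle of mdx mice, which lack dystrophin. The 16 arrays form 3 sets. The first set holds gastrocnemius muscle of male mice aged 2 months: Galgt2 transgenic mdx muscle (CTmdx, strain C57BL/10J x C57BL/6J), Galgt2 transgenic muscle without the mdx mutation (CT, C57BL/6J), mdx muscle (C57BL/10J) and wild-type muscle (WT, C57BL/6J), with 2 arrays per group. The second set holds mdx gastrocnemius (male, 2 months, C57BL/10J) injected with an adeno-associated virus carrying Galgt2 (AAV-Galgt2) and the opposite, PBS-injected muscle, with 2 arrays per group, so every mouse of that set carries the mdx mutation. The third set has 1 array each of C2C12-Galgt2 myotubes, C2C12-Galgt2 myoblasts, C2C12 myotubes and C2C12 myoblasts. C2C12 is a mouse myoblast line that fuses into multinucleate myotubes, and in C2C12-Galgt2 the cells were stably transfected with Galgt2. The promoter that drives the transgene, the AAV serotype and whether the transfected cells are 1 clone are not given in the sources used here. Strain differs between mdx and wild-type muscle, and between transgenic mdx muscle and each other group of its set, wild type included. Mutation, transgene and strain therefore cannot be told apart in those comparisons.

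Adult mouse muscle fibres are classed by the myosin heavy chain they carry, the motor protein that sets the speed of contraction: the slow type I chain from Myh7, or the fast IIA, IIX and IIB chains from Myh2, Myh1 and Myh4, in order of increasing speed. Around the motor, fast fibres use their own versions of the regulatory light chain (Mylpf) and of the troponin complex that switches the thin filament on with calcium (Tnni2, Tnnt3, Tnnc2), their own anchor of thin filaments at the Z-disc (Actn3), the fast calcium pump of the sarcoplasmic reticulum (Atp2a1) and the calcium buffer parvalbumin (Pvalb). The mouse gastrocnemius is a mixed muscle made mostly of fast fibres, with IIB fibres the main type.

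The 3 adult fast myosin genes neighbour each other in the annotation, in the order Myh3, Myh2, Myh1, Myh4, Myh8, Myh13, and Tnni2 and Tnnt3 lie on either side of Lsp1. Because Myh4 on the one hand and Myh1 and Myh2 on the other had differences of opposite sign in transgenic muscle, the 250 bases before their annotated starts are shown, from RefSeq on build GRCm38.p6, all on the + strand and written 5′ to 3′. Capitals mark a run of 20 bases that is the same in all 3.
Myh4, chr11:67237562-67237811: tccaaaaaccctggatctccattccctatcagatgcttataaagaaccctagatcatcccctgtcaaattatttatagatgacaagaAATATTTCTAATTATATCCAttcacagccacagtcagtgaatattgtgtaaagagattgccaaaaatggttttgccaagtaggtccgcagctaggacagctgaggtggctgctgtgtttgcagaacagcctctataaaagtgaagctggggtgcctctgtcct
Myh1, chr11:67199852-67200101: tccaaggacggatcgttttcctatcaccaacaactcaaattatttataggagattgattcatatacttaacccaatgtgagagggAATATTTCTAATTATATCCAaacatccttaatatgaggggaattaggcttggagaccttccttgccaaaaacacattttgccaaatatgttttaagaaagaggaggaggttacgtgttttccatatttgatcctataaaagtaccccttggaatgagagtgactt
Myh2, chr11:67170777-67171026: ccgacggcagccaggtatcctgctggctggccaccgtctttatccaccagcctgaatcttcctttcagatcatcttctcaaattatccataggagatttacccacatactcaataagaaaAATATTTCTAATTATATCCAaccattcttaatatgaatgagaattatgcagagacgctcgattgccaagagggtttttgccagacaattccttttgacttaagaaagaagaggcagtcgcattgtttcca
The shared run starts 163 bases before the annotated start of Myh4, 165 before that of Myh1 and 130 before that of Myh2. Searched on both strands, it occurs in 3 of 32851 promoter windows of this length, or 0.00913%, and these are the 3 shown. The E-box letters CANNTG, which basic helix-loop-helix factors such as MyoD can bind, were matched 2 times in the Myh4 window and 0 times in those of Myh1 and Myh2, against a match in 66.2% of all windows. The letters TATTTATA, an A/T-rich run of the kind bound by MEF2, were matched 1 time each in the Myh4 and Myh1 windows and 0 times in that of Myh2, against 1.56% of windows. TATAAA, whose reverse complement lies inside TATTTATA so that those matches overlap, was matched 3 times for Myh4, 2 times for Myh1 and 0 times for Myh2, against 12.4% of windows, and TGCTGA, a core site of Maf factors, was matched in none of the 3 windows, against 16.1%. Such a match is a description of the letters and not a binding site. Promoter windows were at hand for 7 of the 10 genes (not for Tnni2, Tnnt3 and Actn3).

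The values are intensities on a linear scale, of which log2 was taken. Array medians lay between 57.69 and 63.95 in the transgenic set, 25.35 and 25.71 in the AAV set and 57.18 and 60.37 in the cells, so values were compared within a set only. Replicate arrays correlated at 0.977 to 0.993 over all genes, and nothing in the labels tells if replicates come from different mice, so p-values measure the spread between these arrays, which may be technical. B4galnt2 lay at a log2 level of 13.17 to 13.34 in the 4 transgenic arrays, against 3.86 to 7.78 in the other 4 arrays of the set, and at 10.54 and 10.56 in AAV-Galgt2 against 5.27 and 4.26 in PBS muscle. Dmd lay at 9.86 and 9.87 in transgenic mdx and 8.52 and 8.13 in mdx muscle, against 11.16 and 10.98 in transgenic and 11.14 and 11.16 in wild-type muscle. The labelled tissue was borne out by 8 of 8 skeletal muscle markers, of which Tnnt3 is also a member here, with a summed intensity of 64584 to 75244 in the transgenic set. In 1 transgenic mdx array (replicate 2) the 3′ probe set of Gapdh exceeded the 5′ one by 1.23 on the log2 scale, against 0.18 to 0.48 in the other 7 arrays of the set, a measure of RNA or amplification quality. For beta-actin the same measure was 1.33 and 2.05 in transgenic mdx and 1.46 and 0.85 in transgenic muscle. It was 0.87 and 0.98 in mdx and 0.88 and 1.01 in wild-type muscle. Both transgenic mdx arrays lay above every mdx and wild-type array by both measures. The part of RNA quality in the differences below was not tested.

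The brightest probe sets of these genes sat at the top of the array scale. Among 45101 probe sets they ranked between place 5 and place 336 on every array of the transgenic set and between 6 and 651 on every array of the AAV set. Probe sets in that range varied little: the median log2 range over the 8 transgenic-set arrays was 0.24 for places 1 to 50, 0.41 for places 51 to 500 and 0.96 for places 501 to 5000. The members' own ranges ran from 0.15 for Mylpf, 0.16 for Tnnc2 and 0.18 for Tnnt3 to 0.68 for Actn3 and did not follow brightness strictly: Myh4, at places 8 to 46, spanned more than Tnnt3, at places 20 to 45. Where a gene had a dimmer probe set with signal, that one could vary far more. By probe set, Myh4 spanned 0.43 by its brightest probe set and 2.60 by its second, and Myh1 spanned 0.47, 0.62 and 2.79 by its 3 probe sets, from brightest to dimmest. Whether the bright probe sets were close to saturation was not tested with another method, and the small differences given below for them are small on this scale.

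In mdx against wild-type muscle, the level of every fast fibre gene by its brightest probe set was close to that of wild type. The log2 differences were -0.10 for Myh4, -0.07 for Tnnc2, -0.04 for Pvalb, -0.02 for Tnni2, -0.0017 for Myh2, -0.0013 for Actn3, 0.0021 for Tnnt3, 0.003 for Mylpf, 0.02 for Atp2a1 and 0.03 for Myh1, and 0 of 10 genes passed the test (limma, Benjamini-Hochberg adjustment over all genes, lowest adjusted p = 0.847), against 5.44% of all genes. That share rests on single arrays: 990 genes were called in all, and 132 to 1338 with 1 array left out, fewest when the second wild-type array was dropped. With an unadjusted p under 0.05 there were also 0 of 10, against 20.4% of all genes. The 95% intervals of the 10 differences all lay between -0.49 and 0.44, so changes up to about that size were not excluded by the fit. The mdx arrays lay above the wild-type arrays without overlap for 1 gene (Myh1) and below for 2 (Myh4 and Pvalb), against 23.7% and 21.6% of all genes. The median difference was 0.00 for the members and 0.01 for all genes. Dimmer probe sets, described below, differed more in part: 1452465_at of Myh1 by -1.48 and 1458368_at of Myh4 by -0.34. For 1427520_a_at of Myh1 the difference was 0.10, for 1438609_x_at of Tnni2 -0.13 and for 1438608_at of Tnni2, near the floor, -0.49. None of these passed.

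The same muscles differed in other sarcomere genes. Of 6 embryonic and neonatal sarcomere genes, which regenerating fibres express, 4 rose in mdx against wild type, against 3.75% of all genes called higher: Myh8 by 4.11 ± 0.40 on the log2 scale (adjusted p = 0.00171), Myh3 by 4.10 ± 0.53 (0.00402), Tnnt2 by 3.82 ± 0.43 (0.00256) and Myl4 by 3.11 ± 0.37 (0.003). The first 3 passed in all 21 alternatives and Myl4 in 20, its second probe set having a difference of 0.18. Of 16 other fast fibre genes, 0 passed, with a median difference of -0.05. Of 13 slow fibre genes 2 rose, Casq2, the calsequestrin of slow and cardiac muscle, by 1.33 ± 0.28 (0.0242) and Tnni1, the slow troponin I, by 1.13 ± 0.29 (0.0486), and these calls held in 17 and 4 of 21 alternatives. Eya1, a transcription cofactor of the fast programme, fell by 1.92 ± 0.18 (0.00171, called in 20 of 21 alternatives), the only call among the 6 regulators analysed. Macrophage markers moved with the same contrast: 9 of 12 were called higher and their summed intensity was 40266 to 42781 in mdx against 7566 to 10223 in wild-type muscle. Their part in the values above was not tested, and in whole muscle fewer cells of a type and less RNA per cell cannot be told apart.

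**Figure D1:**
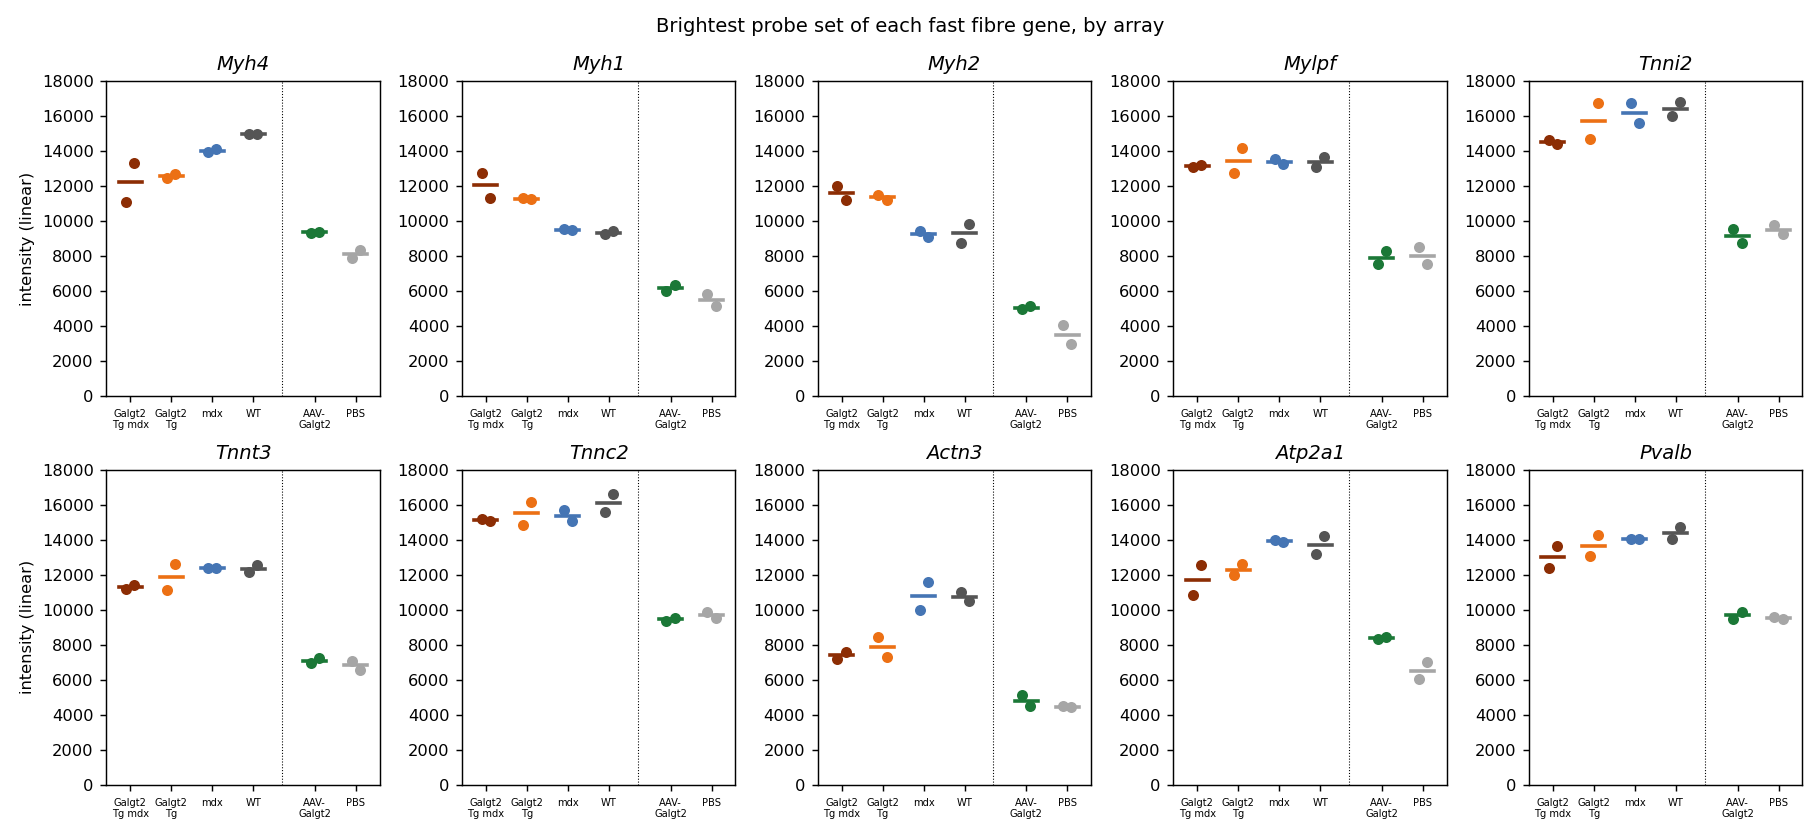
Intensity (linear scale from 0) of the brightest probe set of each fast fibre gene on every muscle array. Points are single arrays, 2 per group, short bars are their means, and the dotted line parts the transgenic set on the left from the AAV set on the right, whose levels are not comparable. Myh1 and Myh2 sit higher, and Actn3, Atp2a1 and Myh4 lower, on the 4 arrays with the transgene, while Tnnc2 and Mylpf lie nearly level.

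In transgenic muscle the differences of the fast motor genes pointed both ways. Myh4, the IIB chain, had intensities of 12460.4 and 12708 in transgenic, against 14999 and 14973 in wild-type muscle. Myh2, the IIA chain, had 11471 and 11233 in transgenic, against 8752 and 9863 in wild-type muscle, and Myh1, the IIX chain, had 11298 and 11252, against 9237 and 9432. Both arrays of the transgenic group thus lay below wild type for Myh4 and above it for Myh1 and Myh2, with no overlap in any of the 3. Actn3, the fast Z-disc actinin, had 8462 and 7289 in transgenic, against 11023 and 10489.8 in wild-type muscle. Atp2a1, the fast calcium pump, had 11961 and 12634, against 13213 and 14189. Both were lower on each transgenic array than on each wild-type array. Such separation was seen above wild type for 20.5% and below it for 27.1% of all genes.

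None of these differences passed the test. In transgenic against wild-type muscle 0 of 10 members were called, against 3.15% of all genes (573 genes, and 184 to 653 with 1 array left out, fewest when the first wild-type array was dropped), and 1 (Actn3) had an unadjusted p under 0.05. Of all genes, 14.2% had an unadjusted p under 0.05. The log2 differences were -0.45 ± 0.19 for Actn3 (SE, adjusted p = 0.293), 0.29 ± 0.20 for Myh2 (0.589), 0.27 ± 0.18 for Myh1 (0.560), -0.25 ± 0.18 for Myh4 (0.598) and -0.16 ± 0.18 for Atp2a1 (0.779). The other 5 were -0.08 for Pvalb, -0.06 for Tnni2, -0.06 for Tnnt3, -0.05 for Tnnc2 and 0.01 for Mylpf. Groups did not overlap for 2 members above (Myh1, Myh2) and 3 below (Myh4, Actn3, Atp2a1), against 20.5% and 27.1% of all genes, and the members' median difference was -0.06, against -0.05 for all genes.

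In transgenic mdx against mdx muscle the same genes stood apart. Actn3 had 7209 and 7586 in transgenic mdx, against 9974 and 11573 in mdx muscle, a difference of -0.54 ± 0.19 on the log2 scale (1.45-fold lower, unadjusted p = 0.0155, adjusted p = 0.121). Myh1 had 12764 and 11325, against 9543 and 9485 (0.34 ± 0.18, adjusted p = 0.320), and Myh2 had 12011 and 11206, against 9447 and 9116 (0.32 ± 0.20, adjusted p = 0.416). For Myh1 and Myh2 every transgenic mdx array lay above every mdx array, and for Actn3 every one lay below. Among all genes, 21.8% lay above and 22.3% below in this way. Myh4 had 11092 and 13346 in transgenic mdx, against 13943 and 14114 in mdx muscle (-0.21 ± 0.18, adjusted p = 0.595). Atp2a1 had 10820.3 and 12541, against 13975 and 13852 (-0.26 ± 0.18, adjusted p = 0.492). In these 2 genes replicate 1 of the transgenic mdx group was the lowest array of the set.

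The thin filament genes and the calcium buffer differed less. Tnni2, the inhibitory subunit of troponin, had 14628 and 14420 in transgenic mdx, against 16752 and 15621 in mdx muscle (-0.16 ± 0.18). Tnnt3, the tropomyosin-binding subunit, had 11167 and 11426, against 12367 and 12384 (-0.13 ± 0.17). Pvalb had 12414 and 13662, against 14036 and 14036 (-0.11 ± 0.17). All 3 were lower on both transgenic mdx arrays, by less than 1 standard error. Tnnc2, the calcium-binding subunit, had 15160.4 and 15093, against 15688 and 15061, and Mylpf had 13092 and 13195, against 13519 and 13237. Their differences were -0.02 and -0.03, and only for Tnnc2 did the groups overlap.

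Over the whole contrast 0 of 10 members passed, against 6.08% of all genes. An unadjusted p under 0.05 was reached by 1 member (Actn3), against 21.1% of all genes. Without overlap, 2 members lay above and 7 below, against 21.8% and 22.3% of all genes, and the median was -0.12 for the members and -0.01 for all genes. With a spread estimated by intensity and robustly, in place of 1 prior spread for dim and bright genes alike, the standard error of Actn3 shrank to 0.13 and Actn3 fell in transgenic mdx against mdx (adjusted p = 0.0274, with 6.1% of all genes called by that fit) and against wild type (0.0218, 7.67%). It was the only member called by that fit in either comparison.

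**Figure D2:**
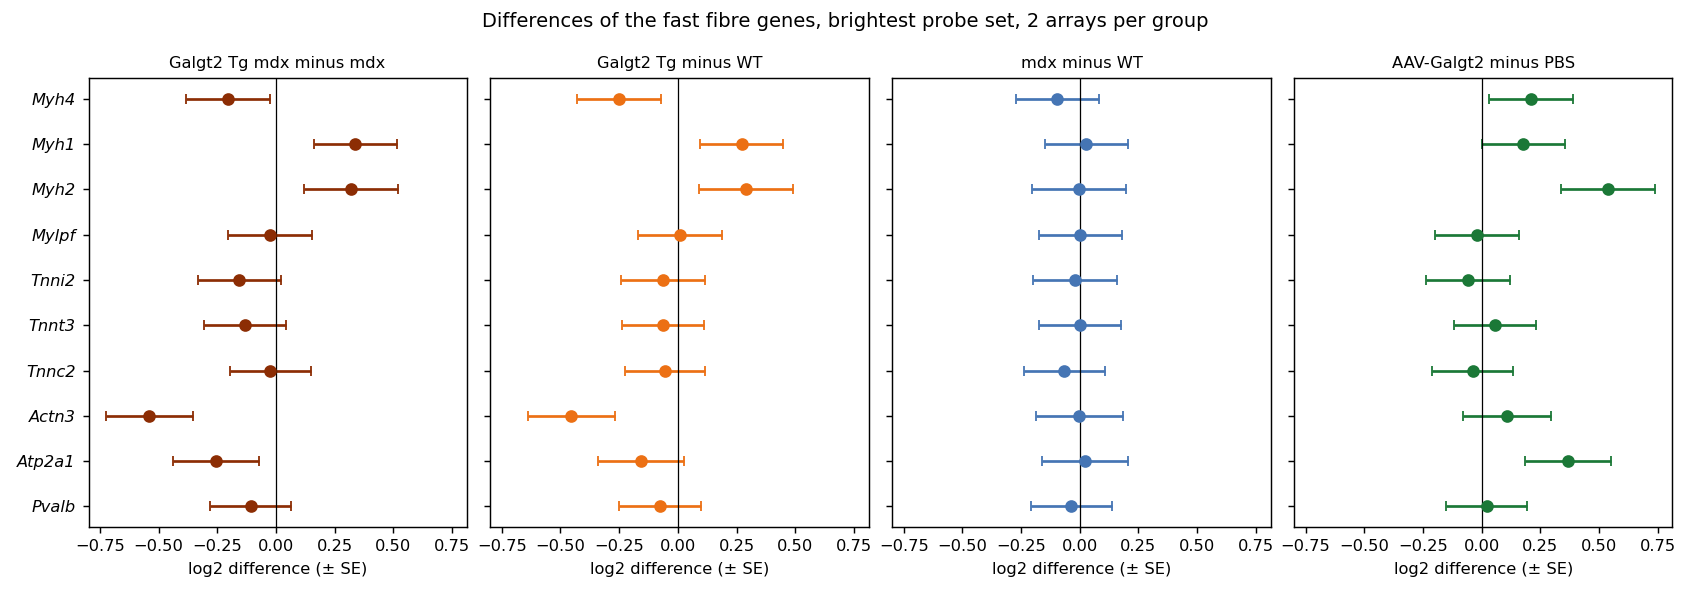
Log2 difference of each fast fibre gene by its brightest probe set, with the standard error from limma (2 arrays per group), by comparison. The panels of transgenic and transgenic mdx muscle place Actn3 furthest below 0 and Myh1 and Myh2 above 0, mdx against wild type lies within 0.10 of 0 for every gene, and in AAV-Galgt2 against PBS Myh2 stands at 0.54.

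Transgenic mdx and transgenic muscle, which differ by the mdx mutation and by strain, showed small differences in these genes. The log2 differences were -0.11 for Tnni2, -0.09 for Actn3, -0.08 for Atp2a1, -0.07 for Pvalb, -0.07 for Tnnt3, -0.05 for Myh4, -0.03 for Tnnc2, -0.03 for Mylpf, 0.03 for Myh2 and 0.09 for Myh1, 0 of 10 genes passed (lowest adjusted p = 1.0, 0 with an unadjusted p under 0.05), against 0.055% of all genes, and every 95% interval lay between -0.51 and 0.49. An unadjusted p under 0.05 was seen for 3.89% of all genes there. The groups did not overlap for 1 gene above (Myh1) and 1 below (Tnni2), against 20.4% and 9.48% of all genes. The interaction, which asks whether the transgene's difference is another one in mdx than in wild-type muscle, ran from -0.10 for Atp2a1 to 0.07 for Myh1, with 0 of 10 called (lowest adjusted p = 0.933, 0 with an unadjusted p under 0.05), against 0.044% of all genes. Its intervals lay between -0.67 and 0.66, and 11.9% of all genes had an unadjusted p under 0.05 for it. Strain differs among the groups of the interaction too.

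Set against wild type, transgenic mdx muscle gave the widest spread of the members. Actn3 differed by -0.54 ± 0.19 (adjusted p = 0.116), Myh1 by 0.37 ± 0.18 (0.274), Myh2 by 0.32 ± 0.20 (0.412) and Myh4 by -0.30 ± 0.18 (0.382). Atp2a1 differed by -0.23, Tnni2 by -0.18, Pvalb by -0.14, Tnnt3 by -0.13, Tnnc2 by -0.09 and Mylpf by -0.02. No member passed, against 7.28% of all genes. With an unadjusted p under 0.05 there was 1 member (Actn3), against 21.3% of all genes. Members without overlap were 2 above and 7 below (all but Mylpf of the other 8), against 27.8% and 24.2% of all genes, with a median of -0.14 for the members and 0.01 for all genes. The comparisons with wild type and those with mdx muscle share arrays, so their values are not independent of each other. Actn3, Atp2a1 and Myh4 placed the wild-type and mdx groups above the transgenic and transgenic mdx groups, with no overlap between the pairs. Myh1 and Myh2 placed them below in the same way. The share of all genes separated in this way was not counted. Within each pair the arrays of Actn3, Atp2a1 and Myh2 overlapped.

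In the transgenic set both probe sets of Myh4 differed in the same direction but by unlike amounts. By its dimmer probe set, 1458368_at, the intensity was 1256 and 1940.4 in transgenic mdx, 2070.3 and 3755 in transgenic, 6704 and 4226 in mdx and 6008 and 7598 in wild-type muscle. All 4 arrays with the transgene lay below all 4 without it, and the share of all probe sets with this order was not counted. In the fit over all probe sets it fell in transgenic mdx against mdx muscle by 1.77 ± 0.41 on the log2 scale (adjusted p = 0.0385), the only probe set of the 15 called there, against 4.65% of all probe sets. Against wild type it fell by 2.11 ± 0.41 (adjusted p = 0.0148, with 5.65% of all probe sets called). The difference was -1.28 ± 0.41 in transgenic against wild type (adjusted p = 0.181), -0.84 ± 0.41 in transgenic mdx against transgenic (1.0) and -0.34 ± 0.41 in mdx against wild type (0.749), and none of these passed. The brightest probe set of Myh4 had the same sign in all of these comparisons, at -0.21 and -0.30 in the first 2.

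The Myh4 call depended on single arrays and on the processing. Against mdx it held in 9 of 19 alternatives and was lost, among others, with the fit within the array set. Against wild type it held in 16 of 19. Against mdx the adjusted p was 0.0571 without either wild-type replicate, 0.125 and 0.0600 without mdx replicates 1 and 2, 0.143 and 0.0890 without transgenic mdx replicates 1 and 2 and 0.0673 without either AAV-Galgt2 replicate, and the difference ranged from -2.10 to -1.44. Against wild type it was 0.0612 and 0.114 without wild-type replicates 1 and 2 and 0.0707 without transgenic mdx replicate 1, with a difference between -2.43 and -1.80. Transgenic mdx replicate 2, the array with the high Gapdh ratio, had the higher of the 2 values for this probe set. In the transgenic pair, replicate 1 had the higher beta-actin measure (1.46 against 0.85) and the lower value. The part of RNA quality in this probe set was not tested.

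The probe sets of Myh1 did not run the same way. The brightest, 1427868_x_at, carries the maker's suffix for probes that also match other sequences, and the second, 1427520_a_at, the suffix for probes shared by several transcripts of the gene, so signal from the closely related myosin heavy chains cannot be told apart from that of Myh1 in the first. By 1427520_a_at the intensity was 10338 and 9434 in transgenic mdx, 9287 and 8554 in transgenic, 6931 and 7661 in mdx and 6907 and 6722 in wild-type muscle, higher on every array with the transgene (0.54 ± 0.21 in transgenic mdx against wild type, adjusted p = 0.175). How many of all probe sets show that order was not counted. By the dimmest, 1452465_at, it was 169.3 and 212.9 in transgenic mdx, 239.8 and 354.1 in transgenic, 160.8 and 676.4 in mdx and 762.8 and 1112 in wild-type muscle. Wild-type muscle was highest there, and mdx replicate 1 was the lowest array. This probe set fell in transgenic mdx against wild type by 2.28 ± 0.52 on the log2 scale (adjusted p = 0.0327), and the call held in 11 of 19 alternatives, being lost without either replicate of wild-type (0.0942 and 0.196), transgenic mdx (0.108 and 0.118) or AAV-Galgt2 muscle (0.0597 for both), with the fit within the array set (0.0926) and with log2 of the value plus 16 (0.0538). In transgenic against wild type its difference was -1.66 ± 0.52 (adjusted p = 0.174), in mdx against wild type -1.48 ± 0.52 (0.154) and between transgenic mdx and mdx muscle -0.80 ± 0.52 (0.456).

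Counted over the 15 probe sets, 0 were called in mdx against wild type (4.14% of all probe sets), 0 in transgenic against wild type (2.33%), 1 in transgenic mdx against mdx, 2 in transgenic mdx against wild type, 0 in transgenic mdx against transgenic (0.0143%) and 0 in the interaction (0.0114%). The second probe set of Tnni2, 1438609_x_at, had 3427 and 3178 in transgenic mdx, 3333 and 3318 in transgenic, 3212 and 3585 in mdx and 3674 and 3778 in wild-type muscle. It ranged only slightly more widely than the bright one (0.25 against 0.22 on the log2 scale). The last probe set of Tnni2, 1438608_at, lay between 9.18 and 24.2 on every muscle array, near the floor of the arrays, and was not read further.

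**Figure D3:**
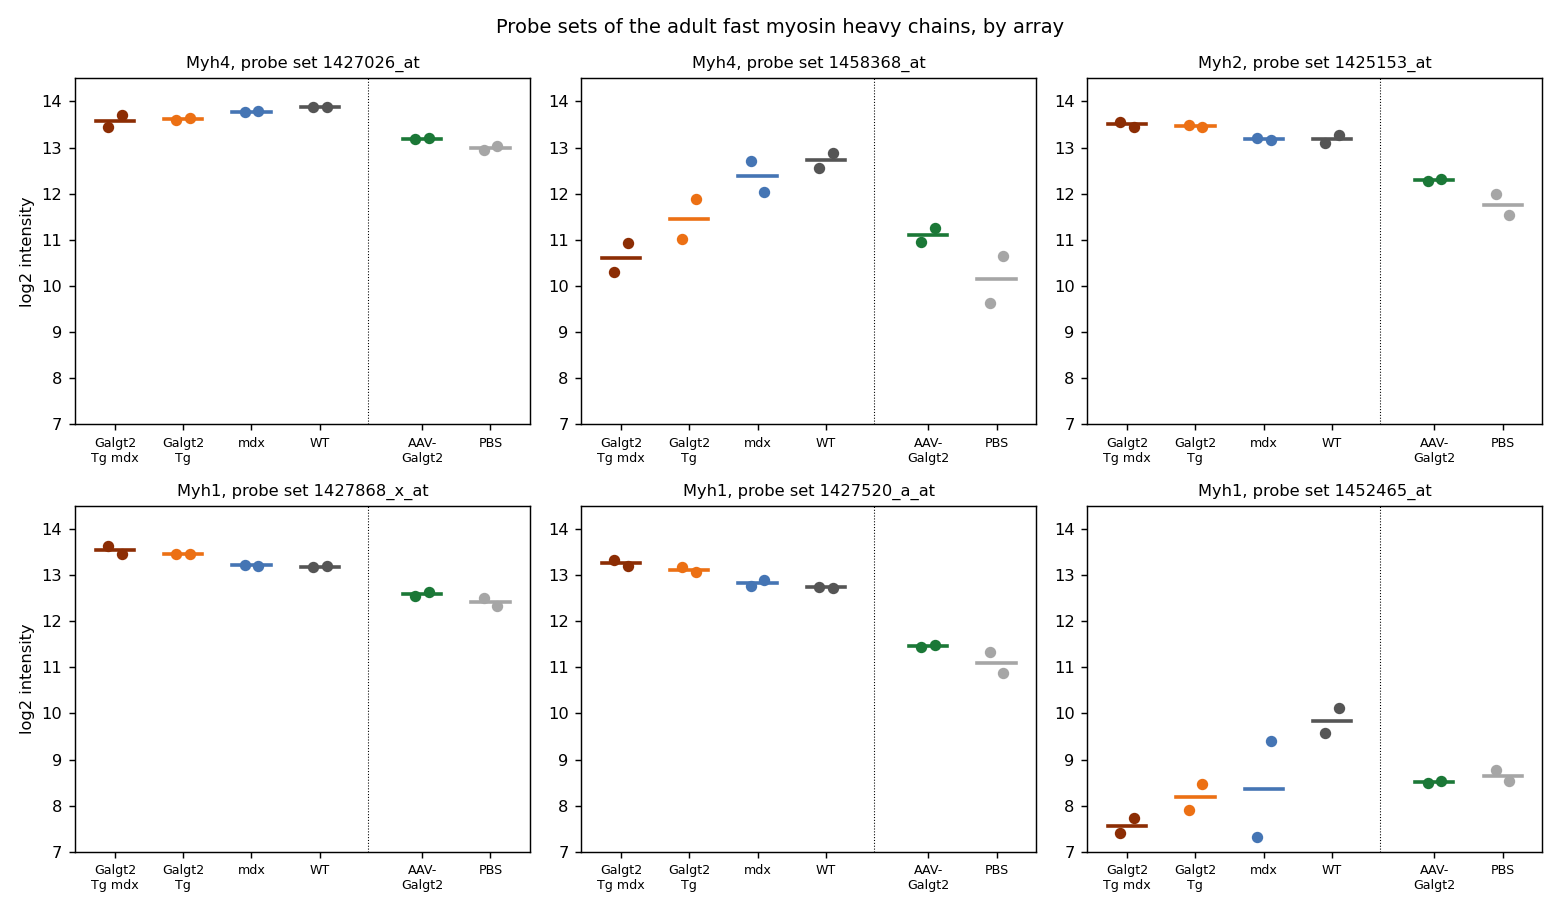
Log2 intensity of the probe sets of the adult fast myosin heavy chains on every muscle array, with 2 points and their mean (short bar) per group and the transgenic set left of the dotted line. Probe set 1458368_at of Myh4 is, within the transgenic set, lowest in transgenic mdx muscle and spans 2.60 over the transgenic set, while 1427026_at of the same gene spans 0.43, and the dimmest probe set of Myh1 is highest in wild type, opposite to the other 2 of that gene.

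Among the slow counterparts of the members, Tnni1 rose with the transgene in wild-type and in mdx muscle. Tnni1 had intensities of 2923 and 2788 in transgenic mdx, 2517 and 3048 in transgenic, 958.9 and 1691 in mdx and 629.5 and 536.8 in wild-type muscle. It rose in transgenic against wild type by 2.25 ± 0.29 on the log2 scale (adjusted p = 0.0023), and in transgenic mdx muscle it rose over wild type by 2.30 ± 0.29 (0.00111), in all 21 alternatives, and over mdx by 1.16 ± 0.29 (0.0412, in 10 of 21). Its fast counterpart Tnni2 differed by -0.06, -0.18 and -0.16 in these comparisons. Tnnt1, the slow troponin T, had 10440.1 and 10175 in transgenic mdx, 8560.3 and 13595 in transgenic, 5398 and 5386 in mdx and 3836 and 5529 in wild-type muscle. It rose by 1.23 ± 0.29 in transgenic against wild type (0.0487, in 4 of 21 alternatives) and by 1.16 ± 0.29 in transgenic mdx against wild type (0.0367, in 14 of 21), but its difference of 0.93 ± 0.29 in transgenic mdx against mdx did not pass (0.0862), while Tnnt3 differed by -0.06, -0.13 and -0.13. Of Atp2a2, the slow calcium pump, the rise of 0.81 ± 0.21 in transgenic mdx against wild type (0.0403) held in 6 of 21 alternatives.

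Myh7, the slow myosin chain, passed in no comparison: it had 8839 and 6226 in transgenic mdx, 6809 and 5779 in transgenic, 2434 and 5998 in mdx and 5379 and 3826 in wild-type muscle. Its largest difference was 0.96 ± 0.39 in transgenic mdx against mdx (adjusted p = 0.192), where mdx replicate 1 was the lowest array. Myl2, Tnnc1 and Actn2 also passed in none of these 4 comparisons. Of 13 slow fibre genes, 3 rose in transgenic against wild type (Tnni1, Casq2 and Tnnt1, against 2.12% of all genes, median 0.55), 2 in transgenic mdx against mdx (Tnni1 and Myh7b, against 3.97%, median 0.66) and 4 in transgenic mdx against wild type (Tnni1, Casq2, Tnnt1 and Atp2a2, against 4.91%, median 0.71), and 0 fell. Casq2 rose by 1.75 ± 0.28 in transgenic (in 19 of 21 alternatives) and by 1.99 ± 0.28 in transgenic mdx muscle (in all 21) against wild type. The members were measured in the part of the scale where probe sets vary least, so the sizes of change of fast and slow genes are not on an equal footing.

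**Figure D4:**
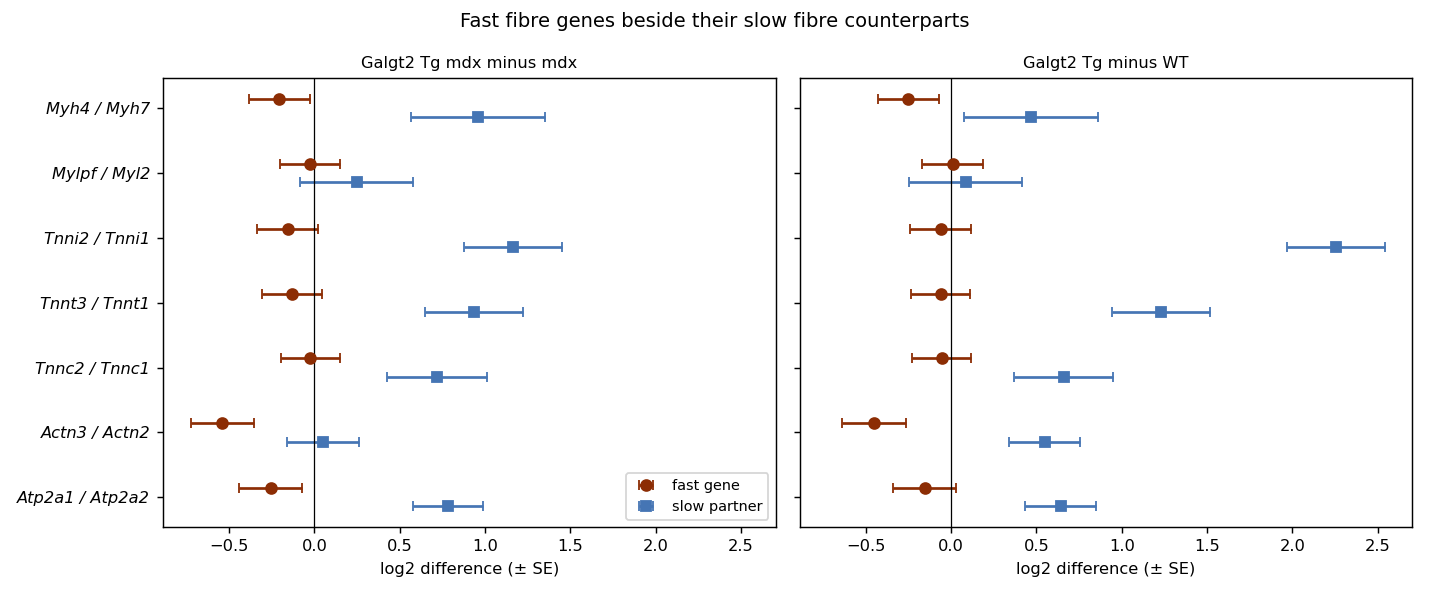
Log2 difference, with its standard error, of 7 fast fibre genes (circles) and of their slow counterparts (squares) in transgenic mdx against mdx muscle and in transgenic against wild-type muscle. Tnni1 and Tnnt1 stand above 1 in transgenic against wild-type muscle while Tnni2 and Tnnt3 stay within 0.07 of 0.

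Of the other fast fibre genes, mostly enzymes and further parts of the contractile and calcium machinery, some fell with the transgene. In transgenic against wild type 2 of 16 fell, against 1.03% of all genes, and 14 of 16 differences were negative with a median of -0.32. Mylk2, the skeletal myosin light chain kinase, fell by 1.38 ± 0.24 on the log2 scale (adjusted p = 0.0126, in 19 of 21 alternatives) and Gpd1, the cytosolic glycerol phosphate dehydrogenase, by 1.70 ± 0.39 (0.0444, in 5 of 21). In transgenic mdx against mdx 3 of 16 fell, against 2.11% of all genes: Gpd1 by 2.23 ± 0.39 (0.0112) while Mylk2 fell by 1.68 ± 0.24 (0.00508), both in all 21 alternatives, and Ckm, the muscle creatine kinase, by 0.96 ± 0.21 (0.0279, in 17 of 21). The median there was -0.52. In transgenic mdx against wild type 5 of 16 fell, against 2.36%, with a median of -0.55: Gpd1 by 2.28 ± 0.39 (in 20 of 21), Mylk2 by 1.99 ± 0.24 (in all 21), Ckm by 1.03 ± 0.21 (in 18 of 21), Ampd1 by 1.03 ± 0.25 (in 14 of 21) and Pygm by 0.82 ± 0.20 (in 11 of 21).

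Of 9 listed regulators of the fast programme 6 were analysed here. Sox6, a repressor of slow fibre genes, fell by 1.40 ± 0.22 in transgenic mdx against wild type (adjusted p = 0.0043, in all 21 alternatives) and by 0.95 ± 0.22 in transgenic against wild type (0.0472, in 4 of 21). Eya1 rose by 1.12 ± 0.18 in transgenic mdx against mdx (0.00774, in 18 of 21) and fell by 0.80 ± 0.18 against wild type (0.0252, in 14 of 21), but by its second probe set the first difference was -0.07. Six4, Tbx15, Maf and Vgll2 passed in none of these comparisons. Embryonic and neonatal sarcomere genes were higher in both transgenic groups than in wild type, 4 of 6 in each, beside 2.12% of all genes called higher in transgenic and 4.91% in transgenic mdx muscle, while Actc1, the cardiac actin also made by immature fibres, fell in both and in transgenic mdx against mdx by 2.23 ± 0.26 (0.00151). Endothelial markers had a summed intensity of 2211 to 2339 in transgenic mdx and 2751 to 2830 in transgenic, against 4033 to 4204 in mdx and 4438 to 4931 in wild-type muscle, with 0 of 7 called in transgenic against wild type and 2 of 7 called lower in transgenic mdx against mdx, beside 2.11% of all genes called lower there. Macrophage markers had 22274 to 23563 in transgenic mdx, against 40266 to 42781 in mdx muscle, with 4 of 12 called lower, and the part of either in the fibre genes was not tested.

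In mdx muscle given AAV-Galgt2 as against PBS, the fast myosins and the calcium pump were higher on the treated arrays by their brightest probe sets. Myh2 had 4962 and 5139 in AAV-Galgt2, against 4062 and 2972 in PBS muscle, a log2 difference of 0.54 ± 0.20 (1.45-fold, unadjusted p = 0.0219, adjusted p = 0.516). Atp2a1 had 8311 and 8474, against 6023 and 7015 (0.37 ± 0.18, adjusted p = 0.641). Myh4 had 9332 and 9406, against 7870.5 and 8338 (0.21 ± 0.18, adjusted p = 0.818). Myh1 had 6031 and 6346, against 5833 and 5136, and Actn3 had 5119 and 4503, against 4487 and 4428. In all 5 genes both AAV-Galgt2 arrays lay above both PBS arrays. None lay below, against 25.3% of all genes above and 18.6% below. Tnni2, Tnnt3, Tnnc2, Mylpf and Pvalb differed by -0.06 to 0.06, with overlapping groups. The dimmer probe sets of Myh1 did not share a sign. By 1427520_a_at the log2 difference was 0.36. By 1452465_at it was -0.14, with 358.6 and 372.7 in AAV-Galgt2 against 438.1 and 369.7 in PBS muscle. Neither passed.

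By the test 0 of 10 members passed in AAV-Galgt2 against PBS, against 0% of all genes, so no gene of the 18194 was called in this comparison, although 1506 genes had an unadjusted p under 0.05. At that level 1 of 10 members (Myh2) was counted, against 8.28% of all genes. The median was 0.08 for the members and 0.03 for all genes, and of 16 other fast fibre genes 14 had a positive difference (median 0.28). Summed tendon markers were 9529 to 11636 in AAV-Galgt2 against 5606 to 6199 in PBS muscle, adipocyte markers 5122 to 5675 against 6644 to 7947, endothelial markers 1705 to 1912 against 1436 to 1592 and skeletal muscle markers 34428 to 35325 against 30841 to 32634. No marker was called, and the part of these in the fibre genes was not tested. The labels pair treated and opposite muscles of the same mice but do not give which arrays share a mouse, so no paired test was made.

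Transgene and virus gave different signs for some members in mdx muscle. By 1458368_at, Myh4 had 1971 and 2456 in AAV-Galgt2, against 790.2 and 1608 in PBS muscle, a difference of 0.96 ± 0.41 (adjusted p = 0.689, with 0% of all probe sets called), beside the fall of 1.77 in transgenic mdx against mdx muscle. The difference between both effects was tested in 1 contrast that was chosen after the Myh4 values were seen. It was -2.73 ± 0.58 for 1458368_at (adjusted p = 0.0545), -0.65 ± 0.26 for Actn3 (0.202) and -0.62 ± 0.26 for Atp2a1 (0.209). No member passed by its brightest probe set, against 2.09% of all genes and 1.18% of all probe sets, and 1 (Myh4) did with the mean of all its probe sets or with its second brightest. Strain differs between transgenic mdx and mdx muscle but not between AAV-Galgt2 and PBS muscle. Array set, strain and route of Galgt2 delivery therefore cannot be told apart in this contrast. The Myh4 probe set passed in 3 of 18 alternatives.

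Over the 12 muscle arrays, with each array set centred on its own mean, some members varied together. Myh1 and Myh2 correlated with each other at 0.85, and Myh4 correlated with Atp2a1 at 0.89, with Actn3 at 0.77 and with Pvalb at 0.76. The troponin genes and the light chain correlated too, Tnni2 with Tnnc2 at 0.78 and Mylpf with Tnnt3 at 0.70 and with Tnnc2 at 0.70, while Mylpf stood at -0.02 with Myh4 and -0.15 with Actn3. Myh1 correlated negatively with Actn3 at -0.78, with Pvalb at -0.62 and with Myh4 at -0.61. These values describe 12 arrays that share groups and normalization and carry no p-value. Among 9087 genes of above-median level that are not members, the mean of the 10 members was most like Kremen1 (Pearson's r 0.939), Atp6v0e2 (0.920), Vwa1 (0.917), Map2k3 (0.898) and Bckdha (0.897), and most opposite to Kdm3a (-0.841), Cfap300 (-0.839), Rpl22 (-0.839), Cnpy2 (-0.824) and Rpl7 (-0.821).

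The C2C12 arrays gave far wider differences, with 1 array per condition and so no test. In C2C12-Galgt2 cells, all 10 members had higher levels on the array of myotubes, labelled as differentiated, than on that of myoblasts. Myh2 had 2185 in myotubes against 175.5 in myoblasts, a 12.5-fold difference. Myh4 had 467.4 against 42.1, which lies below that array's median of 57.18, so no fold is given. Pvalb had 4294 against 700.3, Tnni2 had 8123 against 1881 and Tnnc2 had 7139 against 1964. Atp2a1 had 5549 against 2291, Tnnt3 had 8754 against 4353, Actn3 had 4081 against 2581, Myh1 had 7734 against 5022 and Mylpf had 10672 against 8280.4. At least 2-fold higher were 7 of 10 members, against 4.45% of all genes whose higher level exceeded the array median, and 0 were 2-fold lower, against 3.15%. The median log2 difference was 1.57 for the members and -0.06 for all genes, and with all arrays brought to the same median 6 members reached 2-fold. Of markers of differentiated myotubes that were not members, Myh3 differed by 1.07, Mymk by 0.84 and Ckm by 0.73. Acta1 differed by 0.47, Des by 0.36, Myog by 0.27 and Mymx by 0.10. Among myoblast markers, Pax7 differed by -1.65, Myf5 by -0.53 and Myod1 by -0.12. The C2C12-Galgt2 myoblasts already had 7550 for Myog and 5097 for Mymx.

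The arrays labelled C2C12 ran the other way. On the array labelled myotubes Myh4 had 21.2, below that array's median of 59.35, against 786.4 on the array labelled myoblasts, and Myh2 had 70.5, against 2158. Pvalb had 80.7, against 752.0, Myh1 had 1917, against 7167, and Tnni2 had 2185.2, against 7896. All 10 members were lower on the array labelled myotubes, 8 by at least 2-fold, against 6.52% of all genes, and 0 were 2-fold higher, against 5.69%. The median log2 difference was -1.83, against -0.02 for all genes. Markers of differentiated myotubes that were not members were also lower on the array labelled myotubes. Myh3, the embryonic myosin, had 2859 there against 5637 on the array labelled myoblasts. Mymk, the fusion factor myomaker, had 923.6 against 2288. The log2 differences of the others were -1.77 for Ckm, -0.87 for Acta1, -0.83 for Des, -0.50 for Myog and -0.10 for Mymx. Among myoblast markers, Myf5 had 3336 against 756.2, while Pax7 differed by 0.21 and Myod1 by -0.06. In this pair the levels of the members and of most of these markers go against the labels, which are kept here as given.

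Between the lines, C2C12-Galgt2 myotubes exceeded the array labelled C2C12 myotubes by at least 2-fold in 9 of 10 members (all but Mylpf), against 6.94% of all genes higher and 7.17% lower. C2C12-Galgt2 myoblasts were at least 2-fold below the array labelled C2C12 myoblasts in 5 of 10 members and above it in 0, against 5.12% and 3.75%. Both directions rest on the labels of the untransfected pair. If each array is described by its own values only, the C2C12-Galgt2 myotubes and the array labelled C2C12 myoblasts were the 2 with the higher levels for 10 of 10 members. The margin of the array labelled C2C12 myoblasts over C2C12-Galgt2 myoblasts was small for Actn3 (2597 against 2581) and Pvalb (752.0 against 700.3). The share of all genes with this order was not counted.

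**Figure D5:**
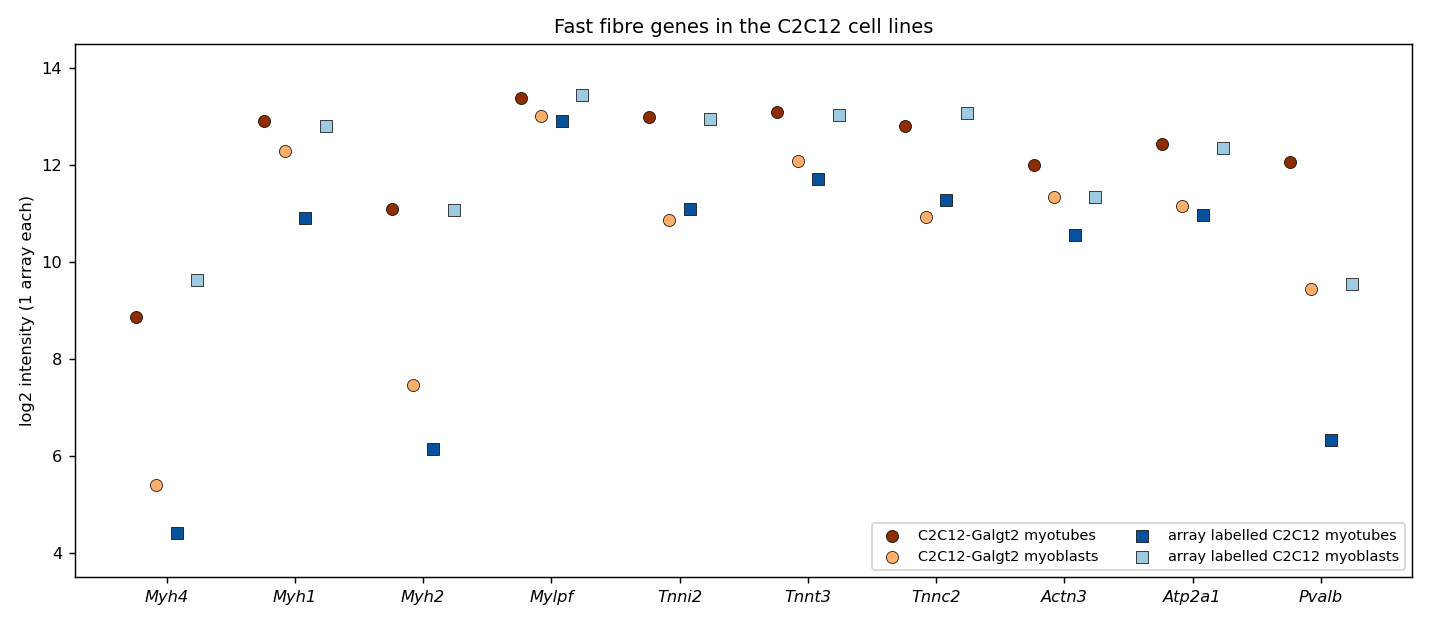
Log2 intensity of the fast fibre genes (brightest probe set over the cell line arrays) in C2C12-Galgt2 myotubes and myoblasts and on the arrays labelled C2C12 myotubes and myoblasts, with 1 array each and so no error bars. The C2C12-Galgt2 myotubes and the array labelled C2C12 myoblasts lie highest for Myh4 and Myh2, and the array labelled C2C12 myotubes lies lowest.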

How the data were processed

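RNA of gastrocnemius muscle (25 ng per array) and of C2C12 cells was measured on expression arrays. Per the submitters' processing notes the authors used GCOS and RMA (versions not listed), and the deposited values are linear intensity per probe set, with 1 array each for 16 samples. Whether the 3 array sets were processed together is not given in the sources used here. Arrays have no read depth, and 2 arrays per group limit the precision.

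Probe sets were joined to genes by the supplied platform annotation: of 45101 probe sets, 34958 carry 1 symbol, 932 several and 9211 have no listed gene, and only those with 1 symbol were used. Each gene was taken by its probe set of highest mean log2 over the muscle arrays, or over the cell arrays for the cell lines. The 12 muscle arrays were fitted as 6 group means in limma 3.58.1 (R 4.3.3) with eBayes, over 18194 genes and again over 34958 probe sets, two-sided, adjusted by Benjamini-Hochberg within each comparison at 0.05. Errors are standard errors of that fit. Cell lines were compared by a 2-fold rule among genes whose higher level exceeded the array median. Sequences were read and counted in Python 3.11.15, and the fit was tested on simulated data.

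All 10 members are named in every comparison of 2 muscle groups. From the other lists up to 4 called genes of largest change are named (Pygm was added after its value was seen), and the slow counterparts, 5 genes most like and 5 most opposite to the members by fixed rules. Statements on single regulators and slow genes that did not pass were added after their values were seen. Members, lists and rules were chosen with earlier results of these data known. Alternatives were scaling within a set, a fit within a set, a replicate block, a level filter, a pseudocount of 16, other probe set choices, an intensity trend with robust estimation and leaving out each array.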

Additional observations from a re-analysis of the deposited data

How the results depend on the processing

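With the brightest probe set, the count of members called stayed at 0 in all comparisons under scaling, the fit within an array set, the level filter and leaving out any 1 array. For transgenic mdx muscle, set against mdx or wild type, it became 1 with log2 of the value plus 16 and with the intensity trend (Actn3 in both), and 1 with the mean of all probe sets or the second brightest probe set (Myh4), and the last 2 settings also gave 1 (Myh4) in the contrast of transgene and AAV effects. Of 1670 single member values under an alternative 1660 kept their side of the threshold, 10 became called and 0 called ones changed sign, and 81 uncalled ones did. Of 2257 probe set values 2225 kept their side, 21 lost a call and 11 gained one. The count of probe sets called in transgenic mdx against mdx (1) became 0 with the fit within the array set and 2 with the intensity trend, and ranged from 0 to 1 with 1 array left out; that 1 without mdx replicate 1 was a Myh1 probe set. Against wild type (2) it became 1 with the fit within the set and ranged from 0 to 2. In mdx against wild type and in transgenic against wild type (0 each) it ranged from 0 to 1, the 1 being 1452465_at without mdx replicate 2, and without either mdx replicate. The number of all probe sets called in transgenic mdx against wild type was 1976, and 575 without wild-type replicate 2, and over genes the lowest count with 1 array left out was 132 of 990 in mdx against wild type, 184 of 573 in transgenic against wild type, 311 of 1107 in transgenic mdx against mdx and 434 of 1324 against wild type. Eya1 in transgenic mdx against mdx turned to -0.073 with the second brightest probe set.

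The labels do not say whether replicate numbers pair the samples. The replicate differences of group pairs correlated between -0.439 and 0.542, which does not settle whether arrays shared a factor. The replicate block follows the given numbers and cannot account for a factor that does not follow them. With the replicate block 0 members were called in every comparison, and the Myh4 probe set 1458368_at kept its call in transgenic mdx against mdx (adjusted p = 0.0494) and against wild type (0.0227). The contrast of transgene and AAV effects was added after the data were seen. With 2 arrays a group and probe sets this bright, small changes of the members cannot be resolved.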
